A study of Mus musculus with 24 samples.

Results

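The response of the lung to house dust mite, taken as the meaning of the label HDM, was measured in mice that lack interleukin 13 (IL-13 KO). The treated group was 3 lung samples of IL-13 KO mice labelled HDM, and the control group was 3 lung samples of IL-13 KO mice labelled PBS (phosphate-buffered saline). The samples were chosen by their titles, which give genotype and treatment, and they were 6 of the 12 samples of the series. The other 6, 3 wild-type HDM and 3 wild-type PBS samples, entered the fit of the spread and served for the comparison of genotypes at the end. Both KO groups carry the same deficiency, the controls included and compares treatments within it. Each sample was hybridised to 2 arrays with different probe sets, here called set A and set B, which gave 12 KO arrays of 24. How the knockout was made, the strain, age and sex of the mice, and the dose, route and timing of HDM are not stated in the labels. Nothing in the labels ties the 3 samples of a group to 3 mice, so p-values describe the spread between these samples, which could be technical.

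IL-13 is a cytokine made by T helper 2 cells and group 2 innate lymphoid cells. It signals through IL-4 receptor alpha and IL-13 receptor alpha 1 to the transcription factor STAT6, and it is known in the airway for driving goblet cells, mucus, smooth muscle contraction and eotaxin release. IL-4 shares the receptor alpha chain and STAT6, and IL-5 and the antibody response belong to the same type 2 response to inhaled mite allergen. The comparison asks which parts of the lung's response to HDM appear in animals without IL-13.

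Il13, the targeted gene, read 3.30, 9.45 and 8.66 in the KO PBS samples, 8.71, 13.6 and 15.5 in the KO HDM samples, 4.65, 12.1 and 5.05 in the wild-type PBS samples and 29.9, 16.0 and 15.5 in the wild-type HDM samples, in arbitrary intensity units. All of these lay under the intensity filter and the genotypes overlapped. Where the probe set lies relative to the altered part of the gene is not given in the sources used here, and these readings leave the genotype labels unchecked.

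The samples carried the markers of whole lung in both groups. Sftpc, the surfactant protein C gene of alveolar type 2 cells, read 5788, 6041 and 3789.6 after PBS and 5252, 5580.5 and 5546 after HDM. Scgb1a1, the main secretoglobin of club cells, read 5676, 5815 and 4712 after PBS and 5228, 6064 and 5085 after HDM. Neither passed the test (log2 differences 0.10 ± 0.19 and 0.02 ± 0.15, SE; adjusted p = 0.818 and 0.962). Ager, the alveolar type 1 receptor for glycation end products, read 19787 to 22614 and 15014 to 16444 (difference -0.43 ± 0.17, adjusted p = 0.152), and another Ager probe set with lower signal was called lower (-0.85). The samples were bulk tissue, so fewer cells of a type and less RNA per cell cannot be told apart in any result that follows. Within a KO group, Spearman correlations of samples ranged from 0.971 to 0.980 for set A and from 0.918 to 0.927 for set B. Actin control probe sets at the 5' and 3' ends give a ratio that falls when RNA is degraded, and this ratio was 0.464 to 0.656 after HDM and 0.748 to 0.854 after PBS on set A (exact permutation p = 0.1, two-sided, the smallest that 3 against 3 samples can give). On set B it was 0.428 to 0.612 against 0.610 to 0.897 (exact permutation p = 0.2). The Gapdh ratio overlapped between the groups on both sets. The part of the actin ratio in the results was not tested.

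HDM changed a broad set of genes in lungs without IL-13. Of 14477 genes tested, 818 were called higher after HDM (5.65%) and 767 lower (5.30%), together 10.9%, by limma at an adjusted p under 0.05. Each list count below is to be read against these shares. The brightest tested probe set stands for each gene, and changes are given on the log2(intensity + pseudocount) scale, which understates changes of dim genes. Rises were larger than falls: 336 genes rose at least 2-fold, 75 at least 4-fold and 24 at least 8-fold, against 144, 3 and 0 genes that fell by as much. The median of the called rises was 0.89 and that of the called falls -0.73. Among all genes 34.3% had HDM and PBS samples that did not overlap. The samples did not overlap in any of the 818 genes called higher, nor in 766 of the 767 called lower, the exception being the clock repressor Nr1d2, whose call was lost without PBS replicate 2 or 3 or HDM replicate 2 or 3 (adjusted p = 0.0998 to 0.131). The first principal component of the 6 KO samples held 44.4% of the variance and separated HDM (39.2 to 48.6) from PBS samples (-47.8 to -36.6). Over probe sets the count was 2696 (8.56%), and it fell to 1549, 1593, 1660 and 1699 without HDM replicate 3, PBS replicate 3, HDM replicate 2 and PBS replicate 1. Of 324 called genes chosen by the naming rule, 242 kept their call in each of 12 fits that left out 1 sample, and a lost call is stated beside the gene.

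**Figure D1:**
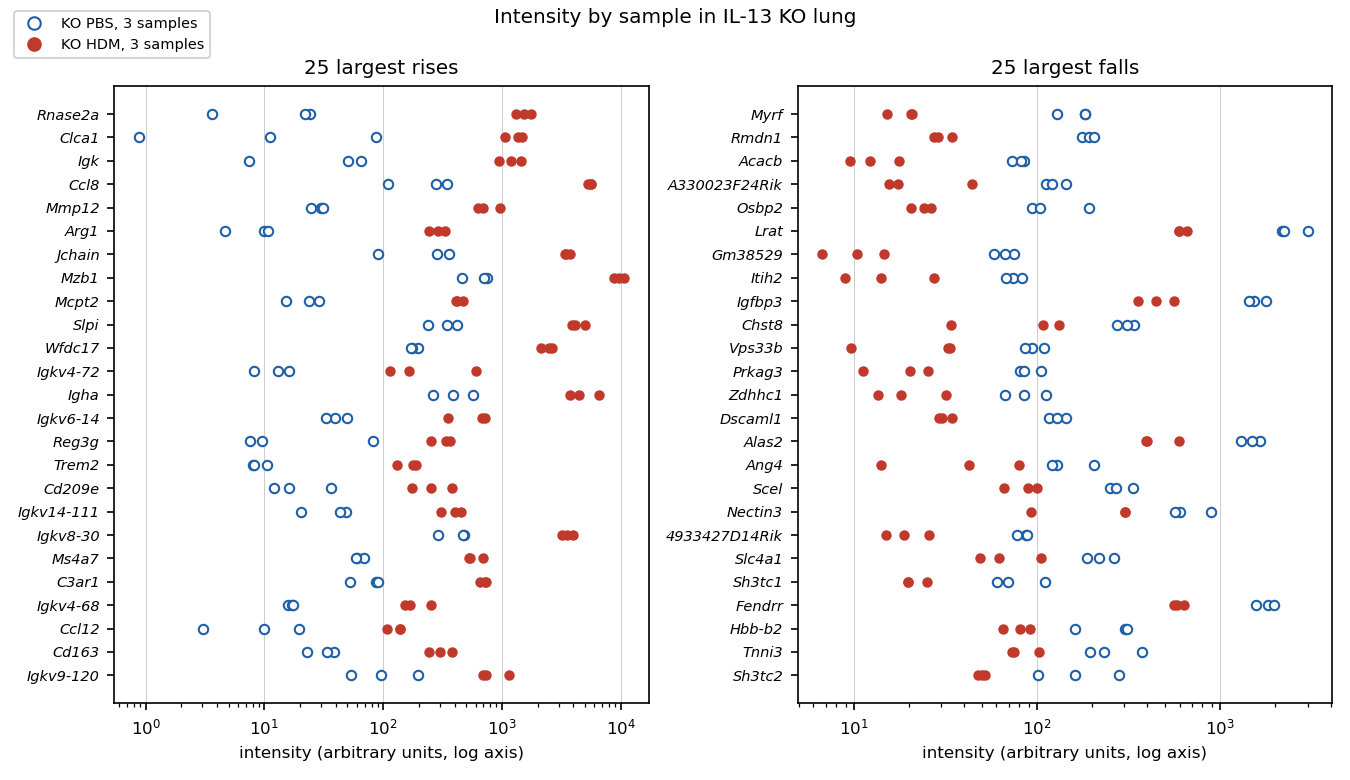
Intensity (log axis, arbitrary units) in each of the 6 IL-13 KO samples for the 25 genes with the largest rise (left) and the 25 with the largest fall (right) among called genes whose groups do not overlap; open circles are PBS samples and filled circles HDM samples. Rnase2a has 1309 to 1771 after HDM against 3.61 to 24.1 after PBS, and Myrf, with the largest fall, has 15.1 to 20.7 after HDM against 128 to 183 after PBS.

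The largest rises included the gene of an eosinophil-associated ribonuclease and genes of mucus, antibody, macrophages and mast cells. Rnase2a, which encodes an eosinophil-associated ribonuclease, read 24.1, 22.0 and 3.61 in the 3 PBS samples and 1771, 1529 and 1309 in the 3 HDM samples, a rise of 6.17 ± 0.57 (log2 ± SE, adjusted p = 4.96e-05). Clca1, a secreted protease of goblet cells that shapes mucus, read 11.1, 87.3 and 0.875 and then 1483, 1070.1 and 1365, a rise of 5.77 ± 0.91 (adjusted p = 0.00211). The PBS samples of both genes differed among themselves many times over, while the HDM samples stood close together. Igk, the immunoglobulin kappa constant region, rose by 4.91 ± 0.59, and its other probe set by less (1.14 ± 0.24). Ccl8, a monocyte and T helper 2 cell attractant, rose by 4.60 ± 0.42. Mmp12, the macrophage elastase, read 24.5, 29.9 and 31.2 and then 633, 692 and 963 (4.42 ± 0.28). Next in size were Arg1, Jchain, Mzb1, Mcpt2, Slpi and Wfdc17, from 4.27 down to 3.65. In Rnase2a, Mmp12, Arg1 and Mcpt2 every KO PBS sample read below the signal of the intensity filter. They passed it through brighter samples, because the filter used the mean over all 12 samples. Of the 25 largest rises, shown in the plot of the largest rises and falls, 10 were immunoglobulin or plasma cell genes.

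The largest falls were smaller than the largest rises. Myrf, a membrane-bound transcription factor, read 128, 183 and 183 after PBS and 20.4, 20.7 and 15.1 after HDM, and fell by 2.73 ± 0.27 (adjusted p = 9.06e-05). Lrat, which esterifies retinol for storage, read 2171, 3003 and 2217 and then 656, 599 and 598 and fell by 1.96 ± 0.25. Igfbp3, a carrier of insulin-like growth factors, fell by 1.79 ± 0.15, Scel (sciellin) by 1.67 ± 0.19 and Fendrr, a long noncoding RNA next to Foxf1 in lung mesenchyme, by 1.57 ± 0.15. Acacb, the mitochondrial acetyl-CoA carboxylase, and Osbp2, an oxysterol-binding protein, fell by 2.13 and 1.97 from PBS signals of 72.6 to 85.2 and 94.2 to 193. Rmdn1 fell by 2.30 on its brightest probe set, while its other probe sets were not called (-0.01 and -0.28).

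Genes of alternatively activated macrophages rose without IL-13. These cells arise under IL-4 or IL-13 through STAT6, and they make arginase, chitinase-like proteins and resistin-like molecules. Of 24 tested genes of that list (25 on the arrays), 16 were called higher and none lower, with a median of 1.14 against -0.0043 over all genes tested. Arg1, arginase 1, read 10.02, 10.6 and 4.64 after PBS and 329, 292 and 244 after HDM (4.27 ± 0.44, adjusted p = 1.05e-04). Retnla, a resistin-like molecule of these macrophages and of airway epithelium, read 783, 1680.2 and 555 and then 5094, 5445 and 5659 (2.57 ± 0.40). Chil3, the chitinase-like protein Ym1, read 549, 601 and 497 and then 2821, 3378 and 3411 (2.53 ± 0.17, adjusted p = 5.45e-06). Every HDM sample of the 3 genes stood above every PBS sample, although the PBS samples of Retnla were spread more widely than those of Chil3. Trem2, a lipid-sensing receptor, rose by 3.43 ± 0.23, the haemoglobin scavenger receptor Cd163 by 3.02 ± 0.25, and the C-type lectin Clec10a and the folate receptor Folr2 by 1.88 ± 0.24 and 1.81 ± 0.17.

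Chil3 and its neighbour Chil4 are near-identical copies on chromosome 3 of which 1 passed the test and 1 did not, so their upstream sequences are shown. Chil4 read 27.5, 101 and 43.1 after PBS and 111, 141 and 129 after HDM, which did not pass the test (1.22 ± 0.46, adjusted p = 0.127), although the groups did not overlap. The probe sets of such close copies can cross-read, so the split of signal between them is uncertain. The 250 bases before each start, from RefSeq (GRCm38.p6), are given 5′ to 3′ on the gene's strand, and capitals mark matches to TTCNNNGAA, the palindrome known as the STAT binding element, searched on both strands and counted once. Chil3 lies at chr3:106167565-106167814 and Chil4 at chr3:106219480-106219729, both on the minus strand.
Chil3: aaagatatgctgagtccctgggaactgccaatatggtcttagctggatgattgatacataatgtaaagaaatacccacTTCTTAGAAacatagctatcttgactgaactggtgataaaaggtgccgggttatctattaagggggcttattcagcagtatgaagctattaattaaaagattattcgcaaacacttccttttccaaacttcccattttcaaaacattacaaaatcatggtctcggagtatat
Chil4: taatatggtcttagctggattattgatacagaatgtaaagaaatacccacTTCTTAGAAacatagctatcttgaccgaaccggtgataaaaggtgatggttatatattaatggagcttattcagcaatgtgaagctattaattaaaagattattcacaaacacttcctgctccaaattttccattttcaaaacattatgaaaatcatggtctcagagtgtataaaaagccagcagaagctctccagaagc
Each window held 1 match, and 201 of 221 aligned bases were identical (91.0%). Among all 32851 RefSeq windows of the same length, 2306 held this motif (7.02%).

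Of 28 tested genes of macrophages and monocytes in general, 15 were called higher and none lower (median 0.75). The 3 chains of the complement starter C1q, made by tissue macrophages, each rose. C1qa read 462, 441 and 332 and then 1873, 1578 and 1702, C1qb 180.4, 273 and 163 and then 915, 905 and 1205, and C1qc 177, 209 and 178 and then 1089, 946 and 1059. Their rises were 2.05 ± 0.14, 2.28 ± 0.18 and 2.41 ± 0.14, with no overlap of samples in any chain. The beta-glucan receptor Clec7a (dectin-1) rose by 1.85 ± 0.14, the macrosialin Cd68 by 1.57 ± 0.12 and the integrin Itgax (CD11c) by 1.42 ± 0.10. Ms4a7 rose by 3.08 ± 0.15 on its brightest probe set, and its other probe set was not called (0.58). Ms4a6d, of the same family, read 41.7, 41.2 and 41.2 after PBS and 292, 229 and 229 after HDM (2.40 ± 0.21). C3ar1, the receptor of the complement fragment C3a, rose by 3.05 ± 0.38, and Cfb, factor B of the alternative pathway, by 1.16 ± 0.18. In the complement list 6 of 16 tested genes were called higher and none lower (median 0.38).

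Of 27 tested lysosomal and lipid-handling genes of macrophages, 18 were called higher and none lower (median 0.81). Ctss, cathepsin S of the antigen-processing compartment, read 856, 675 and 876 after PBS and 2508, 2418 and 2375 after HDM (1.60 ± 0.17). Ctsk, cathepsin K, which degrades collagen and elastin, rose by 1.62 ± 0.17, and the asparaginyl protease Lgmn by 1.73 ± 0.18. Pla2g7, the platelet-activating factor hydrolase, rose by 2.34 ± 0.40, Ch25h, the cholesterol 25-hydroxylase, by 2.15 ± 0.28, and the fatty acid carrier Fabp5 by 1.23 ± 0.17. The galectin Lgals3 had strong signal already after PBS (857 to 1031) and reached 1898 to 2402 after HDM (1.15 ± 0.13). Gpnmb, a glycoprotein of lipid-laden macrophages, rose by 2.29 ± 0.37 on 1 probe set and was not called on the other (0.49). The phagocyte oxidase, which makes superoxide for killing, had 6 of 8 tested genes of its list called higher: Cybb read 1259, 1640.0 and 1596 and then 3793, 3441 and 4073 (1.33 ± 0.14), and Ncf1, Ncf4, Cyba, Rac2 and the proton channel Hvcn1 rose by 1.55, 0.89, 0.92, 1.07 and 0.75. Cybb, Ncf1 and Rac2 each had a further probe set that was not called (0.58, 0.58 and 0.17). Nox4, the oxidase of fibroblasts and vessel wall, fell by 1.10 ± 0.22, its other probe set not being called (-0.86).

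Among the 19 tested genes of the metalloproteinase and inhibitor list, 5 were called higher and 2 lower, and 1 lower without wild-type PBS replicate 2, wild-type HDM replicate 1 or 2, or any one KO sample other than HDM replicate 1. Timp1, which inhibits metalloproteinases, read 86.6, 105 and 90.1 after PBS and 319.9, 361 and 257 after HDM (1.65 ± 0.15). Timp3, its matrix-bound relative, read 1587, 1728 and 1524 and then 1045, 999 and 1134 and fell by 0.60 ± 0.09, another probe set not being called (-0.83). Adam8, a surface protease of leukocytes, rose by 1.53 ± 0.18. Serpina3n, an inhibitor of granzyme and cathepsin G, rose by 2.26 ± 0.20. Slpi, the secreted inhibitor of neutrophil elastase, was among the 10 largest rises, from 423, 345 and 240.4 to 4107, 3928 and 4992 (3.69 ± 0.31, adjusted p = 2.48e-05). Mmp13, a collagenase, was under the intensity filter and was called higher when all probe sets were tested (1.91 ± 0.27, adjusted p = 0.00183), and like every gene under the filter that is named here it was chosen after its values were seen.

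**Figure D2:**
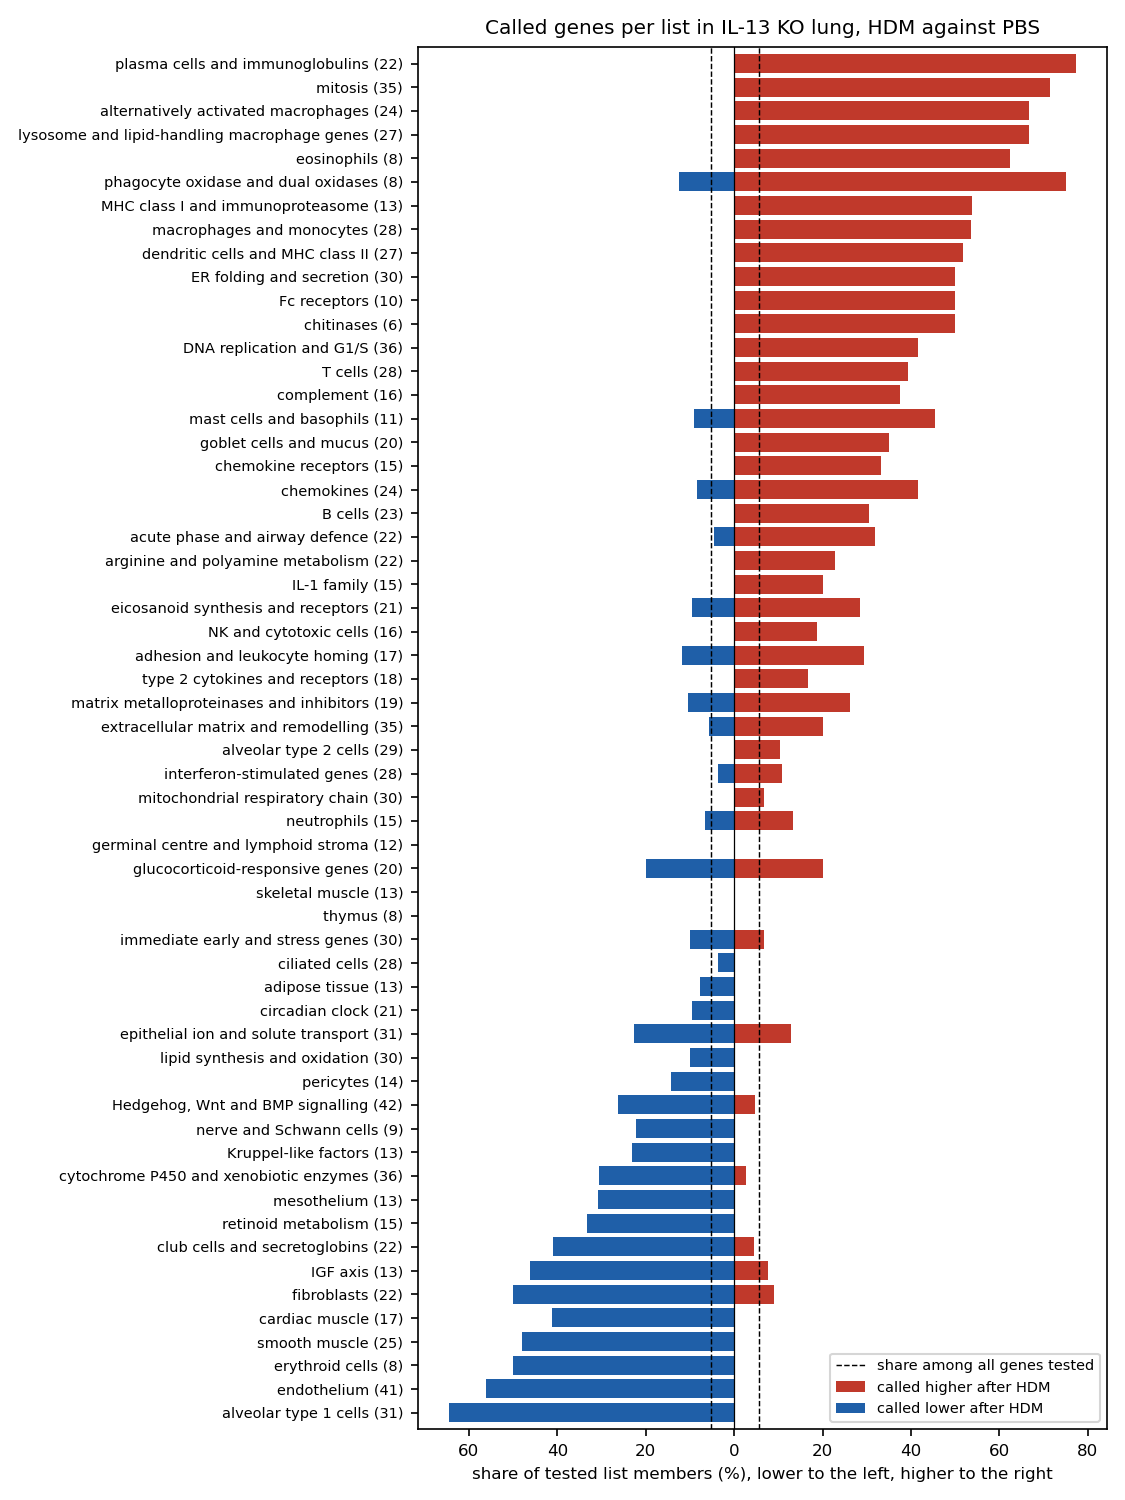
Share of tested members of each of 58 gene lists called higher (red, to the right) or lower (blue, to the left) after HDM in IL-13 KO lung, with the number tested in brackets; dashed lines mark the shares among all genes tested, 5.65% and 5.30%. Plasma cell, mitosis and macrophage lists stand at the top, alveolar type 1 and endothelial lists at the bottom.

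Chemokines, which guide leukocytes into tissue, rose in 10 of 24 tested members and fell in 2 (34 on the arrays; median 0.73). The number of falls was 0 or 1 without any one KO sample or wild-type HDM replicate 2. Ccl8 read 344, 279.9 and 111 after PBS and 5602, 5653 and 5298 after HDM (4.60 ± 0.42, adjusted p = 4.96e-05). Ccl9, a chemokine of macrophages, read 111, 193 and 126 and then 1032, 931 and 1063 (2.79 ± 0.21), and Ccl6, its close relative, 707, 678 and 696 and then 2132, 2561 and 2114 (1.69 ± 0.15). The monocyte attractant Ccl12 came up from near the floor, 3.02 to 19.5, to 107 to 139.5 (3.03 ± 0.34). Ccl20, which attracts dendritic and B cells through CCR6, rose by 2.32 ± 0.29, the neutrophil attractant Cxcl3 by 1.28 ± 0.25, and Cxcl16, a membrane-bound chemokine with a scavenger function, by 0.95 ± 0.11. The eotaxins attract eosinophils through CCR3, and they differed here. Ccl11 read 23.5, 25.3 and 17.3 after PBS and 22.9, 27.8 and 6.47 after HDM, with overlapping samples and no call (-0.26 ± 0.31, adjusted p = 0.688). Ccl24 read 12.2, 18.5 and 28.3 and then 99.7, 59.9 and 51.8 and was called higher (1.53 ± 0.33, adjusted p = 0.0126), a call lost without PBS replicate 1 (0.0554) or HDM replicate 1 (0.0544). Cxcl9 and Cxcl10, induced by interferon gamma, were under the filter and were called higher when all probe sets were tested (2.44 and 1.07). Among 15 tested chemokine receptors 5 were called higher, 2 or 3 without any one KO sample, and Cxcr6, the receptor of Cxcl16, rose by 1.65 ± 0.18.

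Eosinophils are the granulocytes of type 2 inflammation and depend on IL-5. Of 8 tested genes of this list (14 on the arrays) 5 were called higher and none lower (median 1.05). Besides Rnase2a these were Alox15, a lipoxygenase that eosinophils share with macrophages and airway epithelium (28.8, 44.5 and 14.3 after PBS, 170.3, 132 and 171 after HDM, 2.27 ± 0.34), the activating receptor Cd300lb (1.08 ± 0.18), and Csf2rb and Csf2rb2, the shared and the IL-3 specific beta receptor chains (1.16 ± 0.13 and 1.03 ± 0.17). The last pair are near-identical copies whose signals cannot be fully separated. Of the 6 list members under the filter, 3 were called higher when all probe sets were tested: Prg2, the granule major basic protein (10.8, 17.1 and 18.0, then 34.2, 33.8 and 47.7, 1.03 ± 0.22), Rnase2b (1.43 ± 0.38) and the IL-5 receptor chain Il5ra (1.76 ± 0.42). Epx (eosinophil peroxidase) and the eotaxin receptor Ccr3 were under the filter too and were not called (0.50 ± 0.24 and 0.41 ± 0.34). Il5, the cytokine itself, read 1, 19.4 and 12.9 and then 18.9, 35.0 and 17.3, without a call.

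Mast cells store proteases in their granules. Of 11 tested genes of the mast cell and basophil list (18 on the arrays) 5 were called higher and 1 lower (median 0.60). Mcpt2, a chymase of mucosal mast cells, read 15.3, 29.1 and 23.8 after PBS and 413, 470.0 and 421 after HDM (3.92 ± 0.26, adjusted p = 4.81e-06). Tpsb2, a tryptase, read 29.98, 9.26 and 8.29 and then 143, 166 and 139 (2.90 ± 0.38), and its neighbour Tpsab1 17.7, 48.8 and 11.2 and then 114, 195 and 93.8 (2.21 ± 0.39). Cpa3, the mast cell carboxypeptidase, and Cma1, a chymase of connective tissue mast cells, had signal in every PBS sample and rose by 1.64 ± 0.21 and 1.34 ± 0.19. Other chymases, Mcpt1 and Mcpt4, were under the filter and were called higher when all probe sets were tested (1.86 ± 0.23 and 1.95 ± 0.31). Mcpt1 read 16.8, 16.1 and 15.1 and then 75.0, 84.1 and 71.0, with no overlap. Gata2, a transcription factor of mast cells that vascular endothelium also expresses, was called lower (-0.59 ± 0.14, adjusted p = 0.0245), a call lost without any one of 5 KO samples (0.0515 to 0.0918), and another probe set was not called (-0.85).

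The antibody-producing compartment gave the highest share of called genes among the lists with 10 or more tested members. Plasma cells secrete immunoglobulin, and Jchain joins the chains of IgA and IgM for transport across mucosa. Of 22 tested genes 17 were called higher and none lower (median 2.07). Igha, the IgA heavy chain, read 387, 576 and 261 after PBS and 4439.8, 3725 and 6558 after HDM (3.60 ± 0.28, adjusted p = 1.45e-05). Jchain read 285, 358 and 90.4 and then 3376, 3441 and 3744 (4.01 ± 0.54), and Mzb1, a chaperone of immunoglobulin assembly, 745, 709 and 459.9 and then 9762, 8781 and 10720.1 (3.94 ± 0.28). Mzb1 was the brightest of the largest rises, and in all 3 genes the lowest HDM sample exceeded the highest PBS sample several times over. Ighg3, the IgG3 heavy chain, rose by 2.48 ± 0.25, and the lambda variable gene Iglv1 by 2.87 ± 0.50, with HDM samples of 893, 793 and 2515 that differed among themselves. Kappa variable genes among the largest rises were Igkv4-72, Igkv6-14, Igkv14-111, Igkv8-30, Igkv4-68 and Igkv9-120 (2.95 to 3.61). Immunoglobulin segments resemble each other, so a probe set can read several of them. Irf4, a transcription factor that plasma cells need, rose by 2.24 ± 0.22 on 1 probe set and was not called on another (0.58).

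Secreted proteins such as antibody fold in the endoplasmic reticulum (ER). Of 30 tested genes of ER folding and secretion 15 were called higher and none lower (median 0.57). Edem1, which marks misfolded glycoproteins for disposal, read 103, 107 and 129 after PBS and 714, 969 and 934 after HDM (2.87 ± 0.15, adjusted p = 1.19e-06), and its other probe set rose by less (0.82 ± 0.22). Creld2, a stress-induced disulphide isomerase, read 183, 158 and 137 and then 728, 737 and 1033 (2.33 ± 0.21), and Derl3, a channel component of protein retrotranslocation, 44.9, 67.8 and 44.0 and then 293, 299 and 389 (2.51 ± 0.21). Manf and Sdf2l1, further stress-induced lumenal proteins, rose by 1.35 ± 0.17 and 1.40 ± 0.26, and Sec61b, of the translocation channel, by 1.20 ± 0.12. The upstream windows of Creld2 (chr15:88819396-88819645, plus strand) and Derl3 (chr10:75893148-75893397, plus strand) are shown because both hold the ER stress response element, in capitals, which reads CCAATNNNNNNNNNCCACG and contains the CCAAT box; both strands were searched.
Creld2: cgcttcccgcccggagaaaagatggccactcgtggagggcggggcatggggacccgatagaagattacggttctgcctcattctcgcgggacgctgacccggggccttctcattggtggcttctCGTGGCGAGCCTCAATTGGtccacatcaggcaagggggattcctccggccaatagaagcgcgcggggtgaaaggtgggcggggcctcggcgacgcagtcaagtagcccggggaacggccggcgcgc
Derl3: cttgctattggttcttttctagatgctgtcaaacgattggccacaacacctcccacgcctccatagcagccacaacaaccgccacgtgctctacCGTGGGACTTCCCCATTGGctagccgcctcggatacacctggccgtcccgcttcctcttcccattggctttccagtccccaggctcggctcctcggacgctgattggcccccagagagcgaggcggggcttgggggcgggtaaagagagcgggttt
The element was found, on either strand, in 5 of the 12 genes of this list that were called higher and had a RefSeq window (41.7%). It was found in 3 of 13 that were not called (23.1%) and in 37 of all 32851 windows (0.113%). List genes count if any of their windows matches, while the last share counts single windows. The list is made of known folding genes, called or not, and a match is a description.

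Of 23 tested B cell genes 7 were called higher (median 0.57), and 4 without PBS replicate 3 or HDM replicate 3. The adaptor Blnk read 105, 86.6 and 71.7 after PBS and 348, 349 and 431 after HDM (2.02 ± 0.20), Ly86, which pairs with the receptor RP105, rose by 1.85 ± 0.14, and Ms4a1 (CD20) by 1.12 ± 0.21. In a list for germinal centres and lymphoid stroma none of 12 tested genes was called by limma, and Cxcl13, the B cell attractant of follicles, had the smallest p (110.4, 197 and 81.3, then 187, 278 and 245, adjusted p = 0.0783). Of 28 tested T cell genes 11 were called higher and none lower (median 0.65). Icos, a costimulator of T follicular and T helper 2 cells, read 188, 193 and 225 and then 612, 565 and 634 (1.53 ± 0.12), its other probe set being higher by 0.90 without a call. Cd4 read 46.6, 17.1 and 40.1 and then 93.6, 125 and 123 (1.61 ± 0.31), and Cd3g, Cd5, Thy1 and Il7r rose by 1.01, 1.03, 1.06 and 1.12. The checkpoint receptor Pdcd1 (PD-1) was under the filter and was called higher when all probe sets were tested (5.89, 11.1 and 11.2, then 61.0, 55.4 and 62.3, 2.04 ± 0.30). Of 16 tested NK and cytotoxic cell genes 3 were called higher, among them Gzmb (granzyme B, 1.24 ± 0.21) and the transcription factor Eomes (1.19 ± 0.23).

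In the list of dendritic cells and MHC class II, whose products show peptides to CD4 T cells, 14 of 27 tested genes were called higher and none lower (median 0.84). H2-Ab1 read 769, 653 and 585 after PBS and 1598, 1621 and 1672 after HDM (1.29 ± 0.20), and H2-Ea 1016, 1055 and 927 and then 2076, 2119 and 2285 (1.11 ± 0.10). H2-DMa, which loads the peptides, rose by 1.19 ± 0.18, another probe set not being called (1.27). Flt3, the growth factor receptor of dendritic cells, came from 7.90, 12.7 and 22.4 to 78.7, 55.9 and 83.0 (1.94 ± 0.30), and the maturation markers Cd83 and Cd86 rose by 1.37 ± 0.22 and 1.09 ± 0.20. Cd209e, a C-type lectin of the DC-SIGN family, had 1 of the 25 largest rises (16.0, 12.2 and 36.1, then 379, 255 and 174, 3.30 ± 0.34). For MHC class I and the immunoproteasome, which show peptides to CD8 T cells, 7 of 13 tested genes were called higher (median 0.51). The proteasome subunits Psmb9 and Psmb8 rose by 1.23 ± 0.19 and 0.77 ± 0.15, the peptide transporter Tap1 by 0.89 ± 0.15 and the regulator Nlrc5 by 0.91 ± 0.17. Interferon-stimulated genes were called higher in 3 of 28 tested and lower in 1, the higher count falling to 1 without PBS replicate 1 or 3 or HDM replicate 1 or 3. Among all genes tested 5.65% were called higher and 5.30% lower, so these counts are no result about the list. Zbp1, a nucleic acid sensor, rose by 1.61 ± 0.20, and Rsad2, an antiviral enzyme, fell by 1.24 ± 0.22. Receptors for the Fc part of antibodies were called higher in 5 of 10 tested: Fcgr3 read 104, 81.4 and 123 and then 535, 541 and 581 (2.36 ± 0.15), the inhibitory Fcgr2b rose by 1.47 ± 0.18, the shared gamma chain Fcer1g by 1.03 ± 0.20 and the neonatal receptor Fcgrt by 1.07 ± 0.14.

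Of 35 tested mitosis genes (44 on the arrays) 25 were called higher and none lower, with a median of 1.35. Mki67, the proliferation antigen Ki-67, read 35.6, 34.4 and 33.7 after PBS and 298, 243 and 298 after HDM (2.78 ± 0.18, adjusted p = 4.46e-06). Cdk1, the mitotic kinase, read 28.3, 11.8 and 10.8 and then 143, 163 and 150.4 (2.81 ± 0.26), and Birc5 (survivin) 35.7, 35.8 and 26.1 and then 248, 250.4 and 295 (2.78 ± 0.22). In the 3 genes PBS samples were dim and HDM samples several times brighter without overlap. The chromosomal passenger Cdca8 rose by 2.27 ± 0.14, the checkpoint kinase Bub1b by 2.41 ± 0.44, the kinesin Kif22 by 2.26 ± 0.18 and Ube2c, which marks cyclins for destruction, by 1.93 ± 0.16. Genes of DNA replication and entry into S phase were called higher in 15 of 36 tested and lower in none (median 0.58). Rrm2, the small subunit of ribonucleotide reductase, read 72.5, 63.0 and 77.5 and then 417, 389 and 388 (2.38 ± 0.15). Gins2 and Mcm5, of the replicative helicase, rose by 2.25 ± 0.27 and 1.93 ± 0.19, cyclin E1 (Ccne1) by 1.81 ± 0.25 and thymidine kinase Tk1 by 1.47 ± 0.23. Another Mcm5 probe set was not called (0.52).

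The promoters of mitosis genes are known for CCAAT boxes and for the cell cycle homology region, whose core reads TTTGAA. The windows of Mki67 (chr7:135716380-135716629, minus strand), Cdk1 (chr10:69352913-69353162, minus strand) and Ube2c (chr2:164769679-164769928, plus strand) are shown with both motifs in capitals on either strand, so that ATTGG and TTCAAA are the reverse complements.
Mki67: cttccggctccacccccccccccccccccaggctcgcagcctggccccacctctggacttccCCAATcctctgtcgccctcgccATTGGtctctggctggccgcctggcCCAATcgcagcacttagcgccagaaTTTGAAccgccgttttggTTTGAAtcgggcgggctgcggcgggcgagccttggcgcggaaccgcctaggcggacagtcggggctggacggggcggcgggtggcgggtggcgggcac
Cdk1: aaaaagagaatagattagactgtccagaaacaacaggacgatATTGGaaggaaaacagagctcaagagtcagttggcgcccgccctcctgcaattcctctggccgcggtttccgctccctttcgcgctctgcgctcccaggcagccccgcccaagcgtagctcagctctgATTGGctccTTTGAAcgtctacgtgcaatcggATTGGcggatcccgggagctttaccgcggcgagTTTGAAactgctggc
Ube2c: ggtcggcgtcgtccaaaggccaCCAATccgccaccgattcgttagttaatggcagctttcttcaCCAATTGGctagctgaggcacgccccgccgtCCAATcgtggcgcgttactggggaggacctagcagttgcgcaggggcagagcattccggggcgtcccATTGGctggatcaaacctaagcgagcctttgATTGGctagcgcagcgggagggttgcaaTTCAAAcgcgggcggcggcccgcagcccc
Mki67 and Cdk1 each held 3 CCAAT and 2 TTTGAA matches, and Ube2c held 6 and 1. Of the 22 mitosis genes called higher that had a window, 17 held CCAAT, 10 held TTTGAA and 10 held both. At least 2 CCAAT matches occurred in 12 of them (54.5%). In all 32851 windows the shares were 33.9% for CCAAT, 16.0% for TTTGAA, 5.55% for both and 10.1% for at least 2 CCAAT. These shares count single windows, from 27025 genes, while a list gene counts if any of its windows matches. That difference in units can raise the list shares. Of the 8 mitosis genes with a window that were not called, 6 held CCAAT, 2 held TTTGAA, 1 held both and 4 held at least 2 CCAAT. A match is a run of letters and not an occupied site.

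Goblet cells make gel-forming mucins under the control of Spdef, and IL-13 is known as their main inducer. Of 20 tested genes of the goblet cell list (29 on the arrays) 7 were called higher and none lower, with a median of 0.13. Muc5ac, the inducible mucin, read 14.2, 15.7 and 13.9 after PBS and 113, 106 and 122 after HDM (2.48 ± 0.19, adjusted p = 1.37e-05). Muc5b, the constitutive mucin, read 179, 206 and 164 and then 432, 396 and 432 (1.17 ± 0.12), and Tff2, a trefoil peptide that binds mucus, 35.7, 37.4 and 47.9 and then 121, 147 and 192 (1.75 ± 0.21). The anion exchanger Slc26a4 (pendrin) rose by 1.93 ± 0.27 and Fcgbp, a mucus-linked protein, by 0.99 ± 0.16. Other genes of mucous metaplasia had low signal in both groups: Itln1 (intelectin) read 1.80, 1.86 and 2.57 and then 3.66, 3.22 and 2.07, Retnlb 3.38, 2.13 and 3.61 and then 6.43, 8.89 and 6.42, and Spdef 13.4, 27.3 and 19.2 and then 8.78, 12.3 and 17.6. None of the 3 was called when all probe sets were tested (adjusted p = 0.764, 0.222 and 0.513). In wild type Itln1 and Retnlb rose after HDM, with values given in the comparison of genotypes. Among acute phase and airway defence proteins, Saa3, a local acute phase protein, read 44.6, 55.1 and 65.9 and then 386, 384 and 411 (2.70 ± 0.17), Reg3g, a bactericidal lectin, 82.0, 7.63 and 9.60 and then 341, 251 and 363 (3.53 ± 0.56), and the siderophore binder Lcn2 rose by 1.02 ± 0.19. That list had 7 of 22 called higher and 1 lower, the higher count being 4 without PBS replicate 3 or HDM replicate 3. Chia1, the acidic chitinase, read 269, 405 and 338 and then 776, 626 and 558 (0.95 ± 0.18), and Pigr, which carries IgA across epithelium, rose by 0.98 ± 0.21 on 1 probe set and was not called on the other (0.45).

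In the list of arginine and polyamine metabolism 5 of 22 tested genes were called higher, among them Arg2, the mitochondrial arginase (80.1, 79.8 and 79.2, then 176, 169.5 and 178, 1.07 ± 0.15), the creatine-synthesis enzyme Gatm (1.19 ± 0.18) and the arginine transporter Slc7a2 (0.85 ± 0.13). In the eicosanoid list 6 of 21 were called higher and 2 lower. The 5-lipoxygenase partner Alox5ap rose by 0.83 ± 0.15, thromboxane synthase Tbxas1 by 0.95 ± 0.19, the prostaglandin E2 receptor Ptger4 by 1.04 ± 0.15 and the prostacyclin receptor Ptgir by 1.51 ± 0.20. The 2 that fell were prostacyclin synthase and a prostaglandin dehydrogenase. Prostacyclin synthase Ptgis read 943, 941 and 801 and then 559.9, 460.2 and 495 (fell by 0.82 ± 0.11), and Hpgd, which inactivates prostaglandins, fell by 1.19 ± 0.20. The leukotriene B4 receptor Ltb4r1 was under the filter and was called higher when all probe sets were tested (2.10 ± 0.27).

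Among the lists with 10 or more tested members, those of alveolar type 1 cells and endothelium had the highest shares called lower. Alveolar type 1 cells form the thin gas exchange surface, and 20 of 31 tested genes of their list were called lower and none higher (median -0.64), 13 without HDM replicate 2. Aqp5, the water channel of their apical membrane, read 1049, 959 and 966 after PBS and 488, 414 and 502 after HDM (fell by 1.08 ± 0.12, adjusted p = 1.53e-04). Akap5, a kinase anchor, read 1606, 981 and 1342 and then 417, 513 and 391 (fell by 1.53 ± 0.28), and Scnn1g, a sodium channel subunit that clears alveolar fluid, 508, 566 and 535 and then 271, 277 and 210.2 (fell by 1.07 ± 0.15). The samples of the 3 genes did not overlap. The partner subunit Scnn1b fell by 0.79 ± 0.13, the chloride channel protein Clic5 by 0.71 ± 0.12 and the junction protein Lmo7 by 1.30 ± 0.23. Of 29 tested alveolar type 2 genes, 3 were called higher and none lower (median 0.08). Club cell genes were called lower in 9 of 22 tested and higher in 1 (median -0.34). Ciliated cell genes were called lower in 1 of 28 (median -0.25), the microtubule protein Tppp3 (-0.87 ± 0.13). The shares among all genes tested were 5.65% higher and 5.30% lower. Scgb3a1, a secretoglobin of the large airways, was the club cell gene that rose (1773, 1563 and 1325, then 2904, 2627 and 3051, 0.88 ± 0.16).

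Of 41 tested endothelial genes 23 were called lower and none higher (median -0.60). Tek, the angiopoietin receptor, read 1082, 1089 and 1069 after PBS and 566, 505 and 522 after HDM (fell by 1.02 ± 0.10, adjusted p = 1.05e-04), with little spread within each group. Ace, the angiotensin-converting enzyme of lung capillaries, read 1520.0, 1674 and 1432 and then 748, 827 and 700.2 (fell by 1.02 ± 0.11), and Tmem100, a target of BMP9 signalling in arteries, 829.7, 666 and 839 and then 322, 349.8 and 276 (fell by 1.28 ± 0.19). The receptor Calcrl, which binds adrenomedullin, fell by 1.16 ± 0.23 on its brightest probe set and was not called on the others (-0.68 and 0.62). Acvrl1 (ALK1), a receptor of BMP9 in endothelium, fell by 0.90 ± 0.18, and the arterial transcription factor Sox17 by 0.89 ± 0.18, its other probe set not being called (-0.23). The pan-endothelial cadherin Cdh5 was called lower by less (-0.51 ± 0.14, adjusted p = 0.0354), and lost the call without any one KO sample (0.0517 to 0.12), and another probe set was not called (-0.89).

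**Figure D3:**
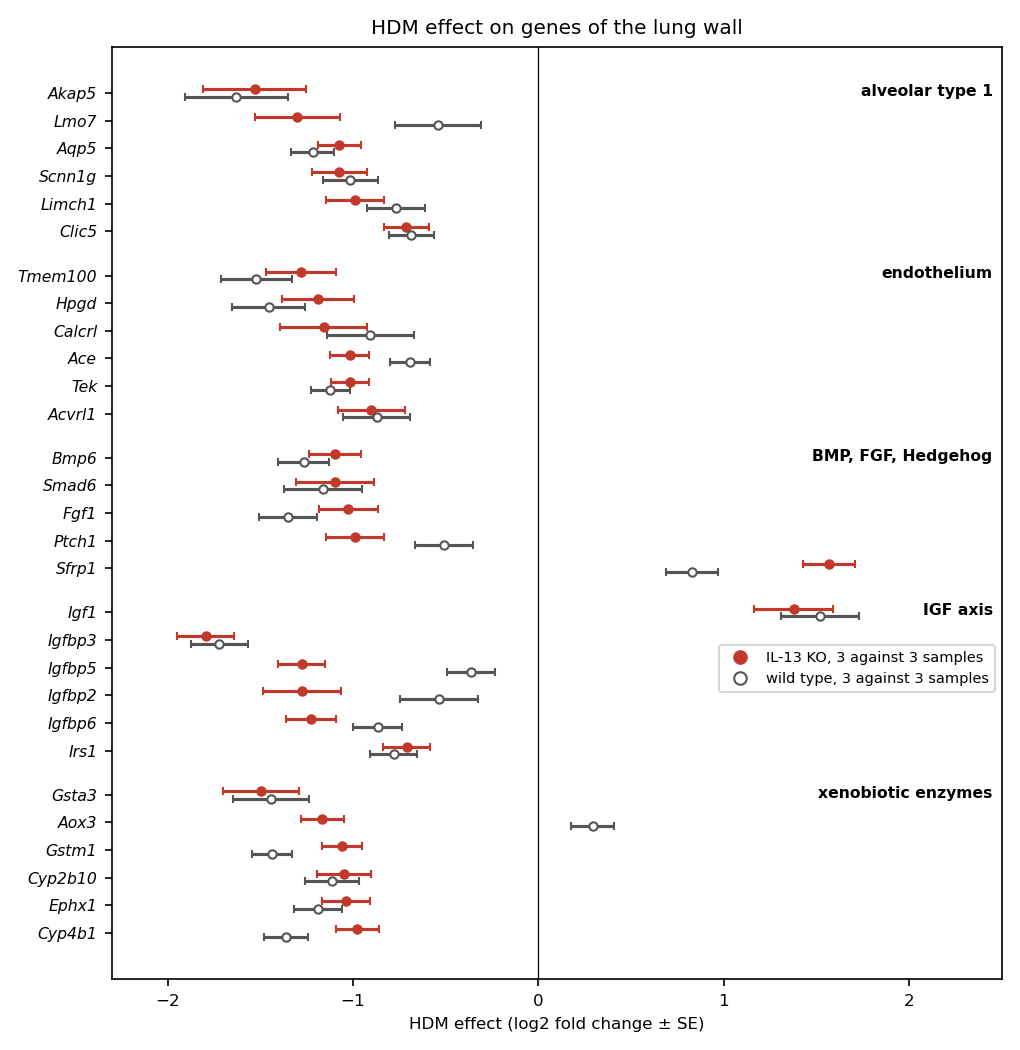
HDM effect (log2 fold change, point, with its SE, bar) for genes of alveolar type 1 cells, endothelium, growth factor signalling, the IGF axis and xenobiotic enzymes in IL-13 KO (red, filled) and wild-type lung (grey, open), 3 HDM against 3 PBS samples each. Igf1 and Sfrp1 lie right of 0 in both genotypes, every other gene plotted except Aox3 lies left of it in both, and Aox3 lies left in KO (-1.17) and right in wild type (0.29).

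BMP, FGF and Hedgehog signals maintain alveolar structure, and in a combined list that also holds Wnt genes 11 of 42 tested genes were called lower and 2 higher (median -0.30). The lower count was 7 without PBS replicate 1 or 3 or HDM replicate 2 or 3, and the higher count 1 without PBS replicate 1 or 3 or HDM replicate 1. Bmp6, a ligand, read 584, 584 and 593 and then 290.4, 256 and 266 (fell by 1.10 ± 0.14), and Fgf1, also a ligand, 783 to 916 and then 388 to 428 (fell by 1.02 ± 0.16, another probe set at -0.92 without a call). Smad6, the inhibitor that BMP signalling induces, fell by 1.09 ± 0.21, and Ptch1, receptor and target of Hedgehog, by 0.99 ± 0.16, its other probe set not being called (-0.18). Sfrp1, a secreted Wnt antagonist, rose, from 268, 317 and 308 to 891, 950.0 and 862 (1.57 ± 0.14), while 2 of its other probe sets were not called (0.70 and 0.60). Fibroblast genes were called lower in 11 of 22 tested and higher in 2 (median -0.52), with 7 lower without PBS replicate 2 or HDM replicate 3. The higher count was 0 without PBS replicate 3 or HDM replicate 3 and 1 without HDM replicate 1 or 2. The receptor Pdgfra fell by 0.97 ± 0.18, the lipofibroblast factor Tcf21 by 0.58 ± 0.10 (another probe set at 0.08 without a call) and the integrin Itga8 by 0.62 ± 0.11. Gsn (gelsolin) fell by 0.79 ± 0.13 on its brightest probe set and on 3 others and rose on another with low signal (2.09). In 5 genes, Gsn among them, calls of different probe sets opposed each other.

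Matrix and remodelling genes were called higher in 7 of 35 tested and lower in 2 (median 0.11), with 4 higher without HDM replicate 3 and 1 lower without PBS replicate 2 or 3 or HDM replicate 2. Eln (elastin) read 1364, 951 and 1055 after PBS and 1756, 2298 and 2282 after HDM (0.91 ± 0.17), and fibronectin Fn1 rose by 0.72 ± 0.10 and the collagen Col5a2 by 0.62 ± 0.12. Another Fn1 probe set was not called (0.71). Ccn2, the connective tissue growth factor, read 740.1, 892 and 942 and then 416, 590.5 and 437 and fell by 0.84 ± 0.16. Tnxb, tenascin X, fell by 1.08 ± 0.17.

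In the insulin-like growth factor (IGF) axis the ligand rose and several carriers fell. Igf1, which macrophages and mesenchyme secrete, read 531, 273 and 396 after PBS and 1054, 1123 and 899 after HDM (1.38 ± 0.21, adjusted p = 0.00186). Igfbp3 read 1531, 1773 and 1429.9 and then 445, 356 and 557 (fell by 1.79 ± 0.15), and Igfbp6 1254, 1357 and 1013 and then 482, 469 and 582 (fell by 1.23 ± 0.13). No sample of the 3 genes overlapped between treatments. Igfbp5 fell by 1.28 ± 0.13, its other probe set not being called (-0.55), Igfbp2 by 1.28 ± 0.21 and the receptor substrate Irs1 by 0.71 ± 0.13. Of 13 tested genes of the axis 6 were called lower and 1 higher.

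In the cytochrome P450 and xenobiotic list 11 of 36 tested genes were called lower and 1 higher (median -0.38). Cyp2b10 read 1271, 1692 and 1188 after PBS and 660.0, 570.0 and 753 after HDM (fell by 1.05 ± 0.14), and Cyp4b1 2674, 2781 and 2232 and then 1393, 1262 and 1231 (fell by 0.98 ± 0.12). The epoxide hydrolase Ephx1 fell by 1.04 ± 0.13. The glutathione transferases Gsta3 and Gstm1 fell by 1.49 ± 0.20 and 1.06 ± 0.11 on their brightest probe sets and had other probe sets without a call (-0.24, and -0.54 and -0.63). The aldehyde oxidases Aox1 and Aox3 fell by 0.88 ± 0.16 and 1.17 ± 0.12. Cyp7b1, which hydroxylates oxysterols, was the gene that rose (35.3, 35.2 and 35.4, then 74.6, 77.2 and 68.4, 0.93 ± 0.18). In the retinoid list 5 of 15 tested genes were called lower, 1 to 3 without any one KO sample except PBS replicate 2. Lrat kept its call in each of these fits. Rbp4, the plasma carrier of retinol, read 265, 249 and 289 and then 167, 166 and 176 (fell by 0.64 ± 0.15, adjusted p = 0.0222), and lost its call in them (0.0568 to 0.0849).

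Of 25 tested smooth muscle genes 12 were called lower and none higher (median -0.45), but 4 to 6 without any one KO sample. Synm (synemin) read 749, 647 and 645 and then 408, 308 and 357 (fell by 0.91 ± 0.17), and Ppp1r14a, an inhibitor of myosin phosphatase, fell by 0.72 ± 0.15. Myh11, the smooth muscle myosin, read 254, 140.0 and 176 and then 107, 81.0 and 87.8 (fell by 0.96 ± 0.23, adjusted p = 0.0248, and 0.0627 to 0.0969 without PBS replicate 1 or 3 or HDM replicate 2 or 3). The cardiac muscle list, which in mouse lung can report the muscle sleeve of the pulmonary veins, had 7 of 17 lower, with Myh6 at 871, 458 and 404 and then 240.4, 165 and 189 (fell by 1.44 ± 0.23) and Tnni3 falling by 1.56 ± 0.25. The summed intensity of its 17 genes was 3364 to 5773 after PBS and 2081 to 2634 after HDM. The erythroid list had 4 of 8 lower, with Alas2, the first enzyme of haem synthesis in red cells, at 1648, 1488 and 1296 and then 395, 597 and 397 (fell by 1.68 ± 0.18) and the anion exchanger Slc4a1 falling by 1.59 ± 0.26. Its summed intensity over 14 genes was 3506 to 4010 after PBS and 1928 to 2489.7 after HDM. The single-gene probe sets of Hba-a1 and Hba-a2 were under the filter. Probe sets shared by several genes were not named, so the signal of any shared globin probe set is outside this sum. Mesothelial genes were lower in 4 of 13, with Upk3b at 444, 512 and 418 and then 199.8, 196 and 192 (fell by 1.19 ± 0.15), and a summed intensity over 14 genes of 4735 to 5340.4 after PBS and 2907 to 3662 after HDM. Skeletal muscle (none of 13 called by limma; sum 777 to 1235 after PBS, 912 to 1064 after HDM) and thymus (none of 8; 1109 to 1205 and 1023 to 1161) overlapped between treatments, while adipose (2072 to 2986 and 1679 to 2021) and nerve sums (3306 to 3800.0 and 2515 to 2764) did not. The part of these tissue markers in the falls was not tested.

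Jun, an immediate early factor, read 1049.8, 817 and 1109 after PBS and 399, 405 and 434 after HDM (fell by 1.24 ± 0.14), Ier3 fell by 0.86 ± 0.15, and Atf3 rose from 51.0, 23.2 and 11.1 to 111, 89.6 and 97.7 (1.74 ± 0.38). Klf15 and Klf9, which glucocorticoids induce, fell by 1.38 ± 0.26 and 0.98 ± 0.16, while the metallothioneins Mt1 and Mt2, also induced by glucocorticoids and by metals, rose by 0.91 ± 0.18 and 1.38 ± 0.13. In the list of glucocorticoid-responsive genes 4 of 20 tested genes were called higher and 4 lower, the latter count being 2 without PBS replicate 3 or HDM replicate 3. Another Klf9 probe set was not called (-0.73). Il33, an epithelial alarm cytokine, read 189.9, 191 and 217 and then 353, 267 and 291 (0.59 ± 0.14, adjusted p = 0.0221), a call lost without PBS replicate 1 or 2 or HDM replicate 1 or 3 (0.0571 to 0.0919). Plpp5, a lipid phosphatase, read 349, 442 and 396 and then 1115, 830.2 and 1071 (1.32 ± 0.17), and Sting1, the sensor of cyclic dinucleotides, 161, 147 and 119 and then 495, 502 and 497 (1.74 ± 0.22).

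The effect without IL-13 was then set against that in wild type by the difference of the 2 HDM effects in the same limma fit, KO minus wild type. Of the 14477 genes 23 were called (0.159%), 1 with a higher effect in KO (0.00691%) and 22 with a lower effect (0.152%), and 27 (0.0857%) of 31496 probe sets were called. An unadjusted p under 0.05 was found for 1797 probe sets. In wild type 5.35% of genes were called higher and 5.14% lower. Of the 818 genes called higher in KO, 501 were also called higher in wild type and 317 were not called there. Of the 767 called lower 426 were called lower in wild type, 337 were not called and 4 were called higher. A call in one genotype alone is no test of a difference. Among the 15 called genes of at least 2-fold chosen for the largest p of the difference, which fixes their differences near 0, were Rnase2a -0.03 ± 0.80, C1qa 0.01 ± 0.20, Ms4a6d 0.01 ± 0.29, Sting1 0.01 ± 0.31, Fabp5 -0.00 ± 0.24 and Nox4 -0.01 ± 0.31. These values describe the chosen genes and do not show that the effects were equal.

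**Figure D4:**
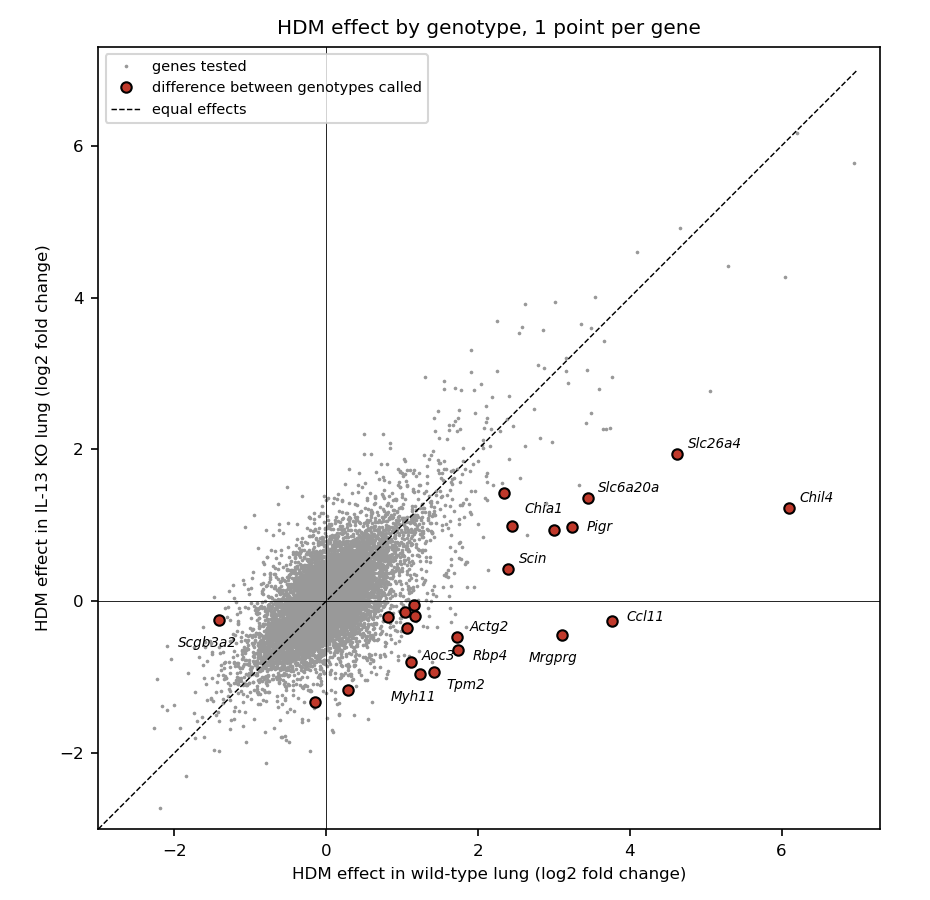
HDM effect in IL-13 KO lung (vertical, log2 fold change) against that in wild-type lung (horizontal), 1 grey point per gene tested; red points are the 23 genes whose difference was called and the dashed line marks equal effects. The red points lie below the line except Scgb3a2, and Chil4, Ccl11 and Mrgprg have the largest differences among the genes plotted.

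Among the genes that passed the intensity filter, the largest differences were in Chil4, Ccl11 and Mrgprg. Chil4 rose in wild type from 13.4, 53.8 and 69.5 to 2697, 3470.0 and 3198, against no call in KO, a difference of -4.87 ± 0.64 (adjusted p = 0.0165). Ccl11 rose in wild type from 25.3, 19.4 and 24.0 to 333, 420.1 and 453, and the difference was -4.02 ± 0.44 (adjusted p = 0.00759). The wild-type HDM samples of both genes stood far above every KO sample. The filter had left out some genes that were dim in KO and bright in wild-type HDM samples. In the fit without it, Itln1 went from 1.87, 2.19 and 3.55 to 423, 437 and 400.4 in wild type, and its difference was larger than that of Chil4 (-5.35, adjusted p = 3.73e-06). Retnlb went from 3.02, 1.77 and 6.34 to 160.2, 176 and 136 in wild type (difference -3.45, adjusted p = 0.00104). Duoxa1, the maturation factor of dual oxidase 1, read 7.12, 8.29 and 7.20 and then 11.96, 10.1 and 13.9 in KO and 11.5, 11.9 and 15.7 and then 93.9, 153 and 113 in wild type (difference -2.26, adjusted p = 0.0291). These were the 3 of 158 list members under the filter with a called difference. Slc26a4, Chia1, Pigr, Slc6a20a and Fcgbp rose in both genotypes and by less in KO, with differences of -2.69, -2.05, -2.26, -2.08 and -1.47. Itgax of the macrophage list also rose in both and by less in KO (-0.92 ± 0.15). In 12 fits that each left out 1 sample, its difference kept the call in 0. That of Slc26a4 kept it in 3, Chia1 in 10, Pigr in 8, Slc6a20a in 1 and Fcgbp in 2. For Arg1 and Muc5ac the difference did not pass the test (-1.77 ± 0.62 and -1.02 ± 0.27, adjusted p = 0.770 and 0.545), nor did it for Mcpt2 and Slpi (1.30 ± 0.36 and 1.44 ± 0.44, adjusted p = 0.607 and 0.664).

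**Figure D5:**
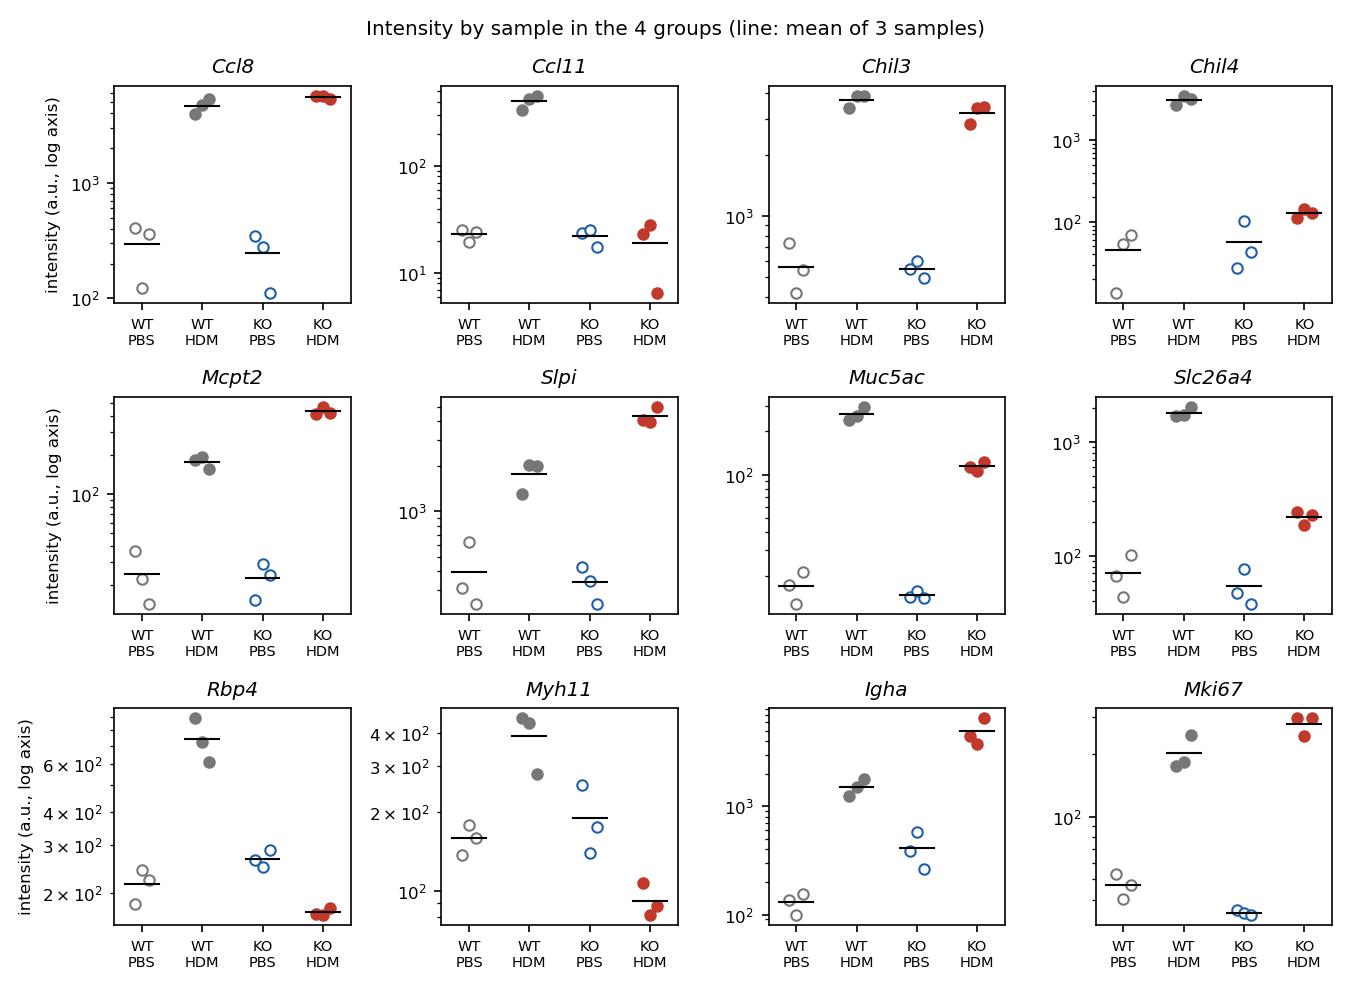
Intensity (log axis, arbitrary units) of 12 genes in each sample of the 4 groups, with a line at the mean of 3 samples. Ccl8, Chil3 and Mki67 are high after HDM in both genotypes, Ccl11 and Chil4 are high in wild-type HDM samples, and Rbp4 and Myh11 are lower after HDM in KO and higher after HDM in wild type.

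Other called differences lay in genes whose effects had opposite signs in the 2 genotypes or were called in 1 genotype only. Rbp4 rose from 181, 243 and 223 to 890.0, 724 and 611 in wild type and fell in KO, a difference of -2.38 ± 0.22 (adjusted p = 0.00148). Aox3 went from 317, 275 and 285 to 382, 376 and 323 in wild type, without a call, and fell in KO. Its difference was -1.46 ± 0.16 (adjusted p = 0.00759 by limma). Among smooth muscle genes Myh11 differed by -2.19 ± 0.33, Tpm2 by -2.36 ± 0.32, Actg2 by -2.19 ± 0.25, Aoc3 by -1.92 ± 0.30, Tagln by -1.42 ± 0.19 and Acta2 by -1.18 ± 0.19. Of these, Myh11, Tpm2 and Aoc3 were called lower in KO (Tpm2 and Aoc3 at 0.0629 to 0.0824 and 0.0509 to 0.124 without any one of 4 and 7 samples), and Actg2, Tagln and Acta2 were not called there. Further Tpm2 probe sets were not called in KO (-0.31 and -0.49) and had no called difference (-0.73 and -1.52). In wild type Myh11 read 138, 179 and 159.8 after PBS and 456, 435 and 278 after HDM. Of 25 tested smooth muscle genes 7 had a called difference, all lower in KO. Evc2, a regulator of Hedgehog signalling in cilia, fell in KO from 372, 359.9 and 375 to 128, 141 and 151, and its wild-type change of -0.15 gave a difference of -1.18 ± 0.18. Scgb3a2 was the single gene whose effect was higher in KO by this test. It fell in wild type from 5503, 4703 and 5236 to 1819.5, 2060.4 and 1939 and read 5375, 5544 and 4546 and 4188, 4389.7 and 4414 in KO (difference 1.16 ± 0.15). The summed intensity of 19 skeletal muscle genes was 4459 in wild-type PBS replicate 2 and 2872 and 8581 in wild-type HDM replicates 1 and 2, against 777 to 1446 in the other 9 samples. A fit without these 3 samples, added after seeing the data, leaves 1 wild-type HDM sample, assumed to vary like the other groups. Only effect sizes are therefore given for it. The differences of Chil4, Ccl11 and Tpm2 were then larger in size (-5.12, -4.12 and -2.54). Those of Rbp4, Myh11 and Scin were smaller (-2.21, -1.84 and -1.56). No called difference changed sign. The part of the muscle signal in the differences was not tested. Nor was that of the actin ratio, which was lower in every KO HDM sample than in every wild-type HDM sample. In fits that left out 1 sample, 6 to 19 probe sets were called, with 6 without wild-type HDM replicate 1 or KO HDM replicate 3, and fewer than 18 in every such fit except that without wild-type PBS replicate 3.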

How the data were processed

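The deposited values were array intensities, 1 per probe set and array, on a linear scale; a trimmed mean (2% from each end) of 150 on every array was found in the deposited files, and how the authors computed the signal is not given in the sources used here. Set A and set B arrays of a sample were joined by their titles. Intensities were turned into log2(intensity + pseudocount), with pseudocounts of 7 (set A) and 11 (set B), taken from the 10th percentile. Controls were removed, as was the dimmest 30% of each set by mean (below a signal of 32.0 and 39.2), which left 31496 probe sets. The mean was taken over all 12 samples, so a gene dim in some groups could pass through another in which it was high. Limma 3.58.1 in R 4.3.3 (lmFit, eBayes with an intensity trend, 8 residual degrees of freedom, Benjamini-Hochberg over all probe sets tested) was fitted to all 12 samples. In data simulated for the HDM effect in KO it recovered 44% of probe sets changed 2-fold and 84% of those changed 4-fold. The simulation changed far fewer probe sets than were called in KO, so these shares need not hold for the data. The number of arrays limits the precision. Replicate numbers did not pair the samples (correlations of same-numbered samples -0.035 to 0.033). Probe sets were named from the platform annotation and current RefSeq symbols, 20351 of set A and 14486 of set B; 691 and 245 probe sets with several genes and 1555 and 7605 with none were not named. Genes under the filter were tested in a fit without it. The named genes were the 25 largest called rises and falls without overlap, up to 8 called members of each list by size (3 by p where none was called), the 15 smallest and 15 largest p of the difference among called genes of at least 2-fold, every called difference and lung markers. The members and lists were chosen with earlier results of these data known. Alternatives covered the pseudocount, filter, normalization, array set, moderation, samples in the fit, replicate block and each left-out sample.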

Additional observations from a re-analysis of the deposited data

Results flagged for a closer look

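Among genes that passed the intensity filter, the HDM effect differed between the genotypes for 23, by limma's test of the difference of the HDM effects (KO minus wild type, log2). Chil4 (-4.87), Ccl11 (-4.02), the receptor Mrgprg (-3.55) and the actin-severing protein Scin (-1.98) rose in wild type and were not called in KO. So did the carbonic anhydrase Car2 (-1.37), Ahcyl2 (-1.20) and the smooth muscle genes Synpo2 (-1.02), Acta2 (-1.18), Tagln (-1.42) and Actg2 (-2.19). Further probe sets of Ahcyl2, Synpo2 and Tpm2 had no called difference. Slc26a4 (-2.69), Pigr (-2.26), Slc6a20a (-2.08), Chia1 (-2.05), Fcgbp (-1.47) and Itgax (-0.92) rose in both genotypes. Rbp4 (-2.38), Tpm2 (-2.36), Myh11 (-2.19) and Aoc3 (-1.92) fell in KO and rose in wild type. Aox3 (-1.46) and Evc2 (-1.18) fell in KO and were not called in wild type. Scgb3a2 (1.16) had no call in KO and fell in wild type. In 12 fits that each left out 1 sample, Actg2, Aox3, Ccl11 and Rbp4 kept the call in 12, Chia1 in 10, Pigr in 8, Chil4 and Tagln in 6, Scgb3a2 and Tpm2 in 4 and Slc26a4 in 3. Acta2, Ahcyl2, Car2, Fcgbp and Myh11 kept it in 2, Aoc3, Mrgprg and Slc6a20a in 1, and Evc2, Itgax, Scin and Synpo2 in 0. No difference changed sign in these fits. In the fit without the filter, differences were also called for Itln1 (-5.35, adjusted p = 3.73e-06), Retnlb (-3.45) and Duoxa1 (-2.26), none of them called in KO and each higher after HDM in wild type.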

How the results depend on the processing

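The count of probe sets called in KO (2696) was 457 on set B alone and 1707 with a replicate block in a fit of only the 6 KO samples, and 1549 to 2807 in fits that left out 1 sample. It lay between 2419 and 2921 under the other alternatives. The count of called differences (27) was 16 with a pseudocount of 1, 17 with the filter at the 50th percentile, 17 without the intensity trend, 11 with a replicate block and 0 on set B alone (limma; 732 at an unadjusted p under 0.05). It was 6 to 19 in fits that left out 1 sample. Leaving out the 3 wild-type samples with muscle signal was an alternative chosen after seeing the data. It keeps 1 wild-type HDM sample, so no count is given for it. The other alternatives gave 22 to 35, and 18 of the 22 without the filter were among the 27. Replicate numbers did not pair the samples, and the replicate block in the fit of 12 samples gave 2419 probe sets in KO and 311 of 324 calls of named genes. Of those 324 calls 307 were kept without the filter, 316 under quantile normalization, 272 with a replicate block in the 6 KO samples and 256 to 322 without 1 sample. No called named gene changed sign under any alternative run. The cause of these changes was not tested. Genes near the pseudocount have understated changes, and 3 samples in a group limit what could be called.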

Other observations

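In the adhesion list 5 of 17 tested genes were called higher and 2 lower. The leukocyte chains Itgb2, the shared beta 2 integrin, and Selplg, the ligand of P-selectin, read 845, 924 and 666 and 294, 210.1 and 215 after PBS and 1501, 1395 and 1846 and 495, 621 and 722 after HDM (0.96 ± 0.14 and 1.33 ± 0.19). Cd44, the hyaluronan receptor, rose by 0.85 ± 0.13, with 1 further probe set called higher (0.81) and 1 not called (0.52). Ackr1, a chemokine-binding receptor of venules, was called higher (0.83 ± 0.19), a call lost without PBS replicate 1 or 3 or HDM replicate 2 or 3 (adjusted p = 0.0518 to 0.0781 by limma). Both lower calls, in Icam1 and Pecam1 (-0.41 and -0.61), were lost without HDM replicate 2, and that of Icam1 also without any 1 of 7 other samples, 3 of them wild-type HDM samples (adjusted p = 0.0509 to 0.153 over both genes by limma).

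Ion and solute transport genes were called higher in 4 of 31 tested and lower in 7, against 5.65% and 5.30% of all genes tested. The calcium-activated potassium channel Kcnn4 read 61.6, 44.0 and 31.4 after PBS and 131, 116 and 154 after HDM (1.45 ± 0.23). Slc6a20a, an imino acid transporter, read 12.5, 10.6 and 11.4 and then 39.1, 39.2 and 43.2 (1.36 ± 0.21). Neither gene had overlapping samples. Jak3, the kinase of the common gamma chain receptors, rose by 0.94 ± 0.16, in a list of type 2 cytokines and receptors with 3 of 18 tested called higher, and 1 without HDM replicate 1 or 3. Pmp22, a myelin and epithelial membrane protein, fell by 0.59 ± 0.12.

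Other genes among the 25 largest falls were Itih2, a hyaluronan-binding heavy chain (73.7, 82.6 and 68.0 after PBS, 27.5, 14.1 and 8.94 after HDM, -1.85 ± 0.27), the sulfotransferase Chst8 (-1.79 ± 0.37) and the palmitoyltransferase Zdhhc1 (-1.78 ± 0.27). Sh3tc1 and Sh3tc2, 2 related genes with SH3 domains, fell by 1.58 ± 0.25 and 1.55 ± 0.29. Hbb-b2, a beta globin, fell by 1.57 ± 0.32 on 1 probe set and was not called on the other (0.32), and globin copies are too alike for their signals to be separated.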
